A study of Homo sapiens with 6 samples.

Results

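The MCM helicase family was followed in H460 cells after depletion of the long intergenic non-coding RNA *HKlincR1*. Members were chosen by gene symbol, as MCM2 to MCM10 and MCMBP, which gave 10 of the 57773 genes listed in the expression table. All 10 passed the filter on low values and were among the 15451 genes tested. H460 is an established line grown from a human lung tumour of the non-small-cell kind. Cells were transfected for 48 hours with 50 nM siRNA, using Lipofectamine RNAiMAX in both groups, and polyA RNA was sequenced. The 3 control libraries carried a non-targeting siRNA (siNT) and the other 3 carried siHKlincR1_2 (siHKlincR1), a single siRNA against *HKlincR1*, so an effect of that siRNA on other transcripts and an effect of *HKlincR1* loss cannot be told apart in these libraries. The labels call the libraries biological replicates.

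The MCM2, MCM3, MCM4, MCM5, MCM6 and MCM7 proteins form a ring of 6 different subunits (MCM2-7) that is loaded on DNA at replication origins before S phase by the origin recognition complex, CDC6 and CDT1. Joined by CDC45 and the GINS complex, the ring becomes the CMG complex, the helicase that unwinds DNA at the replication fork. MCM10 helps to activate this helicase, MCM8 and MCM9 form a separate helicase known for its part in homologous recombination, and MCMBP binds MCM subunits. Genes of the ring are well-known targets of E2F transcription factors and their transcripts are abundant in proliferating cells.

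The libraries held 24980280 to 30521000 reads, of which 89.9% to 91.1% lay on listed genes. *HKlincR1* was the targeted gene and checks the labels. It had 3.62, 3.47 and 3.83 RPKM (reads per kilobase of gene, scaled to library size) in siNT libraries 1 to 3 and 0.563, 0.628 and 0.390 RPKM in siHKlincR1 libraries 1 to 3, a log2 fold change of -2.59 (standard error 0.17, limma adjusted p = 0.00245, or 0.0138 in the fit blocked on replicate number, called the block from here on). On the first principal component of all tested genes, which carried 41.6% of the variance, the third siHKlincR1 library lay at -10.3, among the siNT libraries (-32.5 to -6.81) and away from the other siHKlincR1 libraries (25.1 and 33.2), although *HKlincR1* was lowest in it. The siNT library of the same number was the one at -32.5. On the second component (17.5%) the third siHKlincR1 library lay apart from the controls, at -22.5 against -7.02 to 21. The other siHKlincR1 libraries were at -5.65 and -1.24 there. Of the epithelial markers, KRT8, KRT18 and KRT19 were present (summed list 148 to 170 RPKM with siNT, 149 to 168 with siHKlincR1), while EPCAM and CDH1 averaged under 0.5 RPKM, as did all 5 lung epithelial, all 5 blood markers and the 4 endothelial markers in the table. The 5 fibroblast markers summed to 15.0 to 17.7 RPKM with siNT and 18.9 to 22.8 with siHKlincR1, mostly from COL3A1, with COL1A2 at or near 0. Their part in the results was not tested.

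The siRNA is shown because its guide strand can also pair with other transcripts through its seed, bases 2 to 8, in capitals here. The labels give the sense strand, from which the guide was read as its reverse complement, and over the GENCODE transcripts the sense strand matched the gene of *HKlincR1* alone. The site in MCM5 is the match to the seed, in capitals, at base 200 of the 3′ UTR of its canonical transcript (GENCODE v44 on GRCh37).
siHKlincR1_2 sense strand: gaaguauacucGUGUGCUu
siHKlincR1_2 guide strand: aAGCACACgaguauacuuc
MCM5 3′ UTR site: ggttctgggaaGTGTGCTtttggcatccg

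Of the 10 members, MCM4 and MCM5 held 1 seed site each in the 3′ UTR and the other members held none. Among the tested genes with a 3′ UTR, 1513 of 10765 (14.1%) held the site. A match is a description of the letters and not of an effect.

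Promoter windows are shown because the ring genes that had a window share a sequence feature that their choice by name did not use. The windows, from 250 bases before to 50 after the start, were those of RefSeq on GRCh38.p14, with 8 of the 10 members matched. MCM4 and MCM5 had no window and were not searched. The windows were searched on both strands for TTTCCCGC, TTTCGCGC, TTTGCCGC and TTTGGCGC, forms of the E2F site. All 4 matched genes of the ring, MCM2, MCM3, MCM6 and MCM7, held at least 1 motif, in 4 of their 6 windows since 2 of the 3 MCM7 windows held none, as did MCM8 and 1 of the MCMBP windows, while none was found in the MCM9 and MCM10 windows. A motif was present in 688 of the 13631 windows of tested genes (5.05%) and in 3.31% of all 35116 windows. The sequences below run 5′ to 3′ on the gene's strand with the motif in capitals, and positions are counted from 0 at the start.
MCM2, position 2, chr3:127598402-127598431, plus strand: cgtgaaccactTTTCGCGCgaaacctggtt
MCM3, position -4, chr6:52284728-52284757, minus strand: agttcggaagtTTTCGCGCcggggtggagt
MCM6, position -152, chr2:135876577-135876606, minus strand: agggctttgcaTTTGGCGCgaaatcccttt
MCM6, position -90, chr2:135876515-135876544, minus strand: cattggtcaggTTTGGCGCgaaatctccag
MCM7, position -9, chr7:100101388-100101417, minus strand: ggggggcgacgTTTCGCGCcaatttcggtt
MCMBP, position -9, chr10:119872834-119872863, minus strand: ggcggcggctaTTTCCCGCcattgtgcgaa

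In MCM2 and at both places in MCM6 a second match on the opposite strand overlapped the printed motif, so the 4 matches in the MCM6 window stand at 2 places. MCM3 held a further motif at position -174, and MCM7 one on the opposite strand at position -187. The motif of MCM8, at position 26, lay on the opposite strand. The counts by list take a gene as holding a motif if any of its windows did. The shares over all promoters above are of windows, so they are not like for like. Among the CMG partners, 3 of the 4 genes matched held a motif. The other replication lists had 2 of 3 genes for fork protection, 5 of 11 for the E2F list, 4 of 9 for origin licensing, 7 of 17 for strand synthesis, 2 of 6 for origin firing, 1 of 5 for the partners of MCM8 and MCM9 and 1 of 9 for CMG unloading, so the motif was also found outside the ring.

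The first comparison concerned the level of each member in the control cells. RPKM is corrected for gene length, here the length of all exons of the Ensembl v74 gene model, so the order can depend on those models. With siNT, MCM7 was the most abundant member at 91.3 ± 5.67 RPKM (SD, n = 3), above 97.1% of all tested genes. MCM4 (39.0 ± 4.21 RPKM) and MCM3 (37.9 ± 3.40 RPKM) came next and their ranges overlapped. MCMBP (29.3 ± 0.733 RPKM) stood apart from its neighbours, and MCM2 (24.7 ± 1.06 RPKM) and MCM6 (24.6 ± 1.06 RPKM) overlapped. Below them were MCM5 (16.4 ± 1.73 RPKM), MCM8 (14.1 ± 0.147 RPKM), MCM10 (9.15 ± 0.722 RPKM) and MCM9 (1.11 ± 0.102 RPKM), each with all 3 libraries above the next. MCM9 was above 15.4% of the tested genes. With siHKlincR1 the order differed by the exchange of MCM3 (34.6 ± 8.32 RPKM) and MCM4 (32.0 ± 10.3 RPKM), whose ranges overlapped each other and that of MCMBP (30.2 ± 0.830 RPKM), and MCM5 (13.6 ± 3.30 RPKM) now overlapped MCM8 (13.6 ± 0.575 RPKM).

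**Figure D1:**
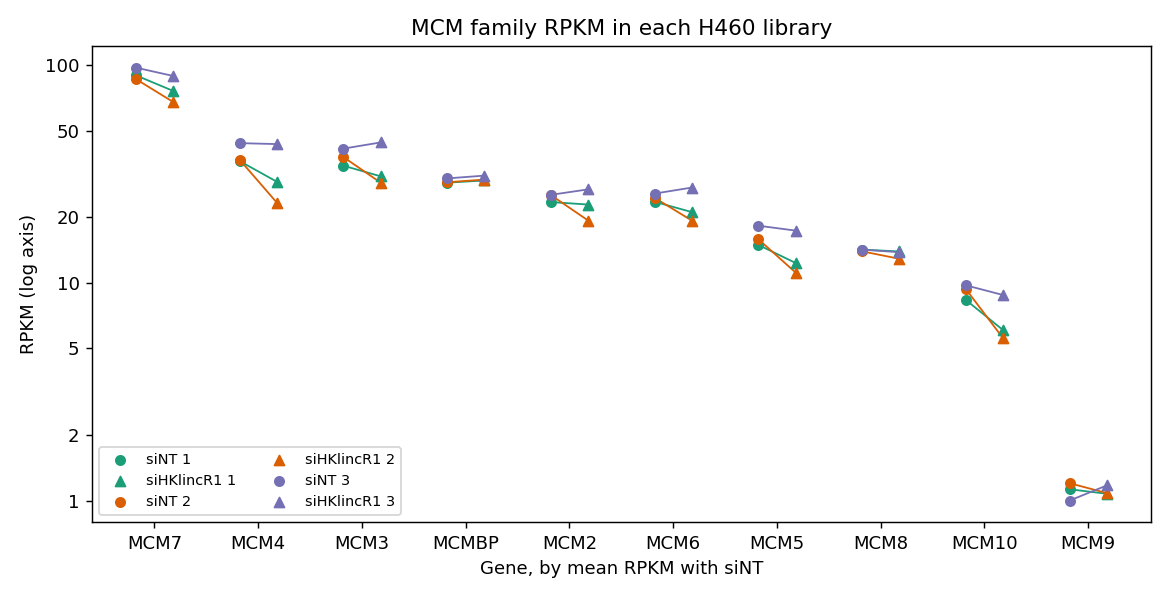
RPKM on a log axis for the 10 MCM family members in each H460 library, with siNT as circles and siHKlincR1 as triangles, and lines joining libraries with the same replicate number (n = 3 per group). MCM7 lies highest and MCM9 lowest in all libraries, and for MCM2 to MCM7 and MCM10 the siHKlincR1 points of libraries 1 and 2 lie below those of library 3.

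The question was whether loss of *HKlincR1* altered the transcript levels of the helicase genes. Each gene was tested with limma on log2(RPKM + 0.1), where a call required both an adjusted p (Benjamini-Hochberg, all tested genes) below 0.05 and a fold change above 1.5. None of the 10 members was called, either without or with the block, when 0.356% and 0.809% of all tested genes were called lower. At an unadjusted p under 0.05, 1 of the 10 members (MCM10) was lower without the block, against 9.19% of all genes. With the block, 4 of the 10 (MCM4, MCM5, MCM7 and MCM10) were lower, against 14.0%. The voom fit on reads called 0 of the 10 as well. In bulk RNA, fewer cells of a type and less RNA per cell cannot be told apart.

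The 6 ring genes had the following values. MCM2 (ENSG00000073111, chromosome 3, 127317253 to 127341279, plus strand, GRCh37) had 23.5, 25.3 and 25.4 RPKM in siNT libraries 1 to 3 and 22.9, 19.3 and 26.9 RPKM in siHKlincR1 libraries 1 to 3. The highest and the lowest library both carried siHKlincR1, so the groups overlapped. The log2 fold change was -0.11 (standard error 0.12, limma adjusted p = 0.643, and 0.513 with the block), and without siHKlincR1 library 2 it was 0.01.

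MCM3 (ENSG00000112118, chromosome 6, 52128812 to 52149679, minus strand) had 34.6, 37.9 and 41.4 RPKM with siNT and 30.9, 28.9 and 44.2 RPKM with siHKlincR1. Libraries 1 and 2 of siHKlincR1 were below all controls and library 3 was above them. The difference between groups was -0.15 on the log2 scale (standard error 0.16, limma adjusted p = 0.649, and 0.377 with the block).

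MCM4 (ENSG00000104738, chromosome 8, 48872745 to 48890720, plus strand) is part of the MCM4, MCM6 and MCM7 subcomplex that has helicase activity in vitro. It had 36.3, 36.8 and 43.9 RPKM with siNT and 29.2, 23.4 and 43.4 RPKM with siHKlincR1. Relative to its level, the spread within siHKlincR1 was the widest of the 10 members, from the lowest to nearly the highest library of the 6. On the log2 scale the difference was -0.33 (standard error 0.21, limma adjusted p = 0.460, and 0.177 with the block).

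MCM5 (ENSG00000100297, chromosome 22, 35796127 to 35821424, plus strand), which with MCM2 flanks the opening through which the ring is closed on DNA, had 14.9, 15.9 and 18.3 RPKM with siNT and 12.3, 11.2 and 17.4 RPKM with siHKlincR1. Again libraries 1 and 2 of siHKlincR1 were below all controls, while library 3 lay within their range. The log2 fold change was -0.29 (standard error 0.17, limma adjusted p = 0.417, and 0.139 with the block). MCM4 and MCM5 are the members with a seed site. Beside their values stand those of ring genes without one, from -0.11 for MCM2 to -0.24 for MCM7. The members outside the ring, also without a site, ran from -0.45 for MCM10 to 0.04 for MCMBP. The part of the site was not tested.

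MCM6 (ENSG00000076003, chromosome 2, 136597196 to 136634013, minus strand) had 23.6, 24.6 and 25.7 RPKM with siNT and 21.1, 19.3 and 27.4 RPKM with siHKlincR1. Its siHKlincR1 libraries lay on both sides of the controls. Its log2 fold change was -0.14 (standard error 0.13, limma adjusted p = 0.605, and 0.393 with the block).

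MCM7 (ENSG00000166508, chromosome 7, 99689856 to 99699563, minus strand), whose gene body holds the MIR25, MIR93 and MIR106B microRNA cluster, had 89.9, 86.4 and 97.5 RPKM with siNT and 76.2, 67.8 and 89.2 RPKM with siHKlincR1. Each siHKlincR1 library was below the siNT library of its number, and library 3 overlapped the controls. The difference was -0.24 on the log2 scale (standard error 0.11, limma adjusted p = 0.326, and 0.0875 with the block). This was the smallest standard error of the 6 ring genes in the fit without the block.

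The other 4 members do not belong to the ring. MCM10 (ENSG00000065328, chromosome 10, 13203558 to 13253110, plus strand) had 8.35, 9.37 and 9.75 RPKM with siNT and 6.06, 5.56 and 8.79 RPKM with siHKlincR1. Each siHKlincR1 library was below the siNT library of its number, with library 3 inside the control range. The log2 fold change, -0.45 (standard error 0.17, 95% interval -0.85 to -0.05), was the lowest of the 10 members and did not pass (limma adjusted p = 0.279, and 0.102 with the block). Without siHKlincR1 library 3, MCM10 was called, at -0.65 (limma adjusted p = 0.0284).

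MCM8 (ENSG00000125885, chromosome 20, 5931298 to 5979623, plus strand) had 14.22, 13.96 and 14.21 RPKM with siNT and 13.94, 12.9 and 13.83 RPKM with siHKlincR1. It was the 1 member of 10 with all siHKlincR1 libraries below all siNT libraries, by a narrow margin between the siNT library 2 and siHKlincR1 library 1, and 11.9% of all tested genes had groups apart in that direction. On the log2 scale it differed by -0.06 (standard error 0.06, limma adjusted p = 0.649, and 0.521 with the block).

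MCM9 (ENSG00000111877, chromosome 6, 119134605 to 119256327, minus strand) had 1.13, 1.20 and 1.00 RPKM with siNT and 1.07, 1.08 and 1.17 RPKM with siHKlincR1, from 312 to 458 reads per library. The groups overlapped fully. The log2 fold change of 0.0033 (95% interval -0.33 to 0.33, limma adjusted p = 0.992, and 0.991 with the block) changed sign when some libraries were left out.

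MCMBP (ENSG00000197771, chromosome 10, 121588916 to 121652068, minus strand) had 28.9, 29.0 and 30.2 RPKM with siNT and 29.5, 29.8 and 31.1 RPKM with siHKlincR1. Its 6 libraries lay close together. The log2 fold change was 0.04 (95% interval -0.10 to 0.18, limma adjusted p = 0.755, and 0.626 with the block).

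**Figure D2:**
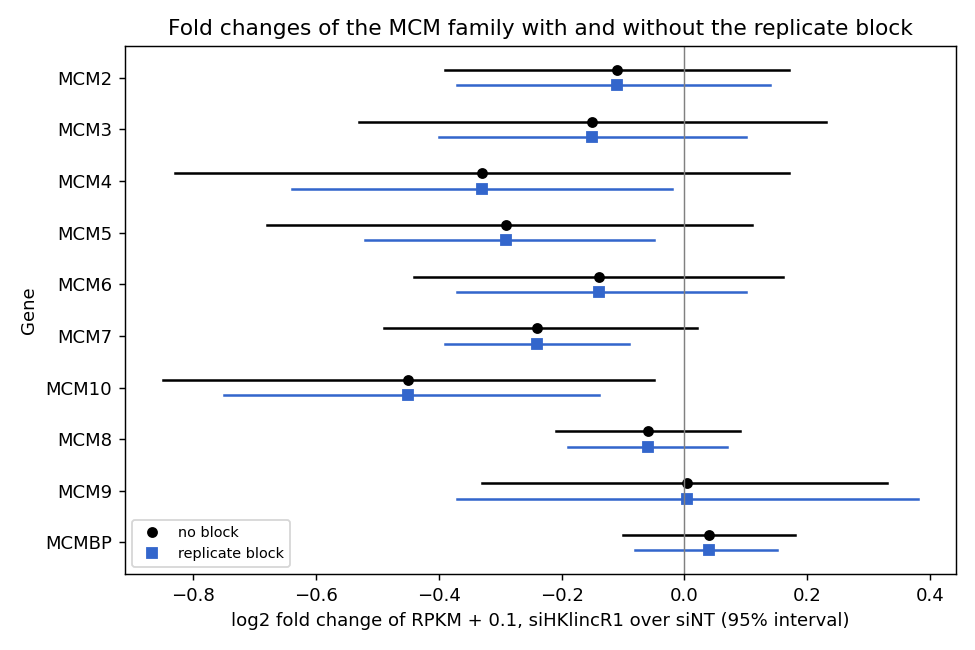
log2 fold change of RPKM + 0.1, siHKlincR1 over siNT, for each member, with 95% intervals from limma without (circles) and with (squares) the replicate number as a block (n = 3 per group). The interval of MCM10 is below 0 in both fits (-0.85 to -0.05 without the block), those of MCM4, MCM5 and MCM7 are below 0 only with the block, and the other 6 members' intervals include 0 in both.

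Differences among the same-numbered libraries were then set out, because 9 of the 10 members, all but MCM9, had a larger SD among the siHKlincR1 libraries than among the controls. As log2 ratios of siHKlincR1 over siNT, the median of the 6 ring genes was -0.20 for libraries 1, -0.39 for libraries 2 and 0.03 for libraries 3, when the medians of all tested genes were 0.004, -0.01 and -0.002. All 6 ring genes were lower in libraries 1 and 2, and 3 of the 6 (MCM4, MCM5 and MCM7) in libraries 3. MCM4 ranged most, from -0.66 in libraries 2 and -0.32 in libraries 1 to -0.01 in libraries 3. MCM10 was at -0.46, -0.74 and -0.15 in libraries 1 to 3. MCMBP, at 0.03, 0.04 and 0.04, was alike in the 3 pairs, and MCM8 lay between -0.11 and -0.03. Counting error was at most 5.66% of a member's reads in any library, for MCM9, and 1.08% for MCM7.

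**Figure D3:**
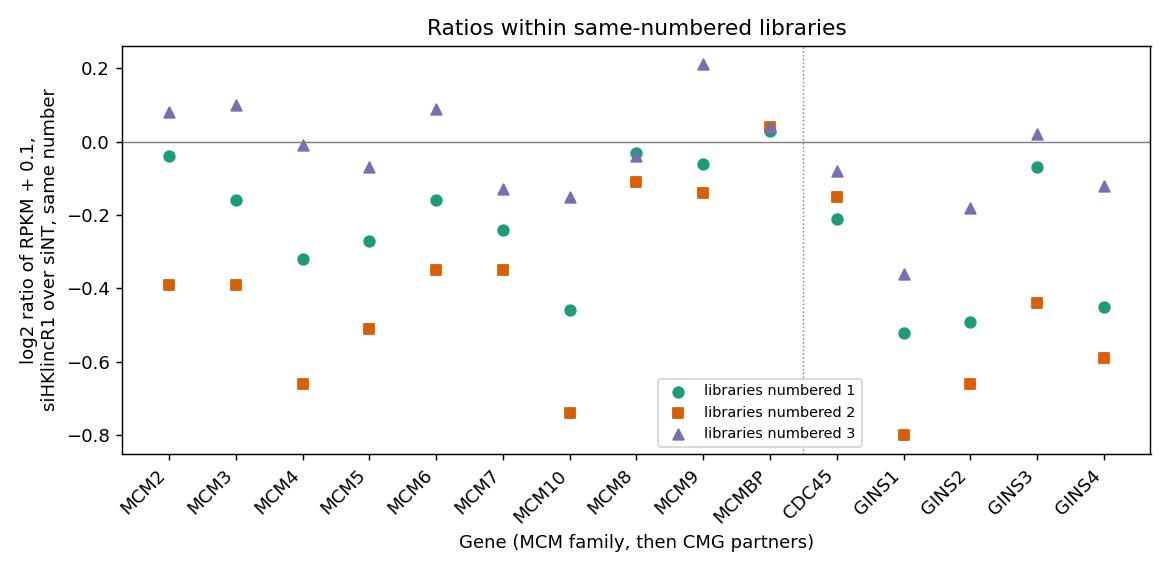
log2 ratio of RPKM + 0.1 between the siHKlincR1 and siNT libraries of the same number (colour and shape), for the MCM family and, right of the dotted line, the CMG partners. Libraries numbered 2 give the lowest ratio for each of the 6 ring genes and MCM10, and libraries numbered 3 the highest.

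Without siHKlincR1 library 3, 1 of the 10 members (MCM10) was called lower, against 2.03% of all tested genes. By adjusted p alone, MCM4 (log2 fold change -0.57, limma adjusted p = 0.0479), MCM5 (-0.47, limma adjusted p = 0.0480) and MCM10 passed, 3 of the 10, against 4.56% of all genes. MCM3, MCM6 and MCM7 had limma adjusted p-values of 0.0711, 0.0686 and 0.0592 in that fit, and MCMBP one of 0.879. Without siHKlincR1 library 2 the values were instead closer to 0, at -0.13 for MCM4, -0.16 for MCM5, -0.03 for MCM3 and -0.03 for MCM6. Library 3 is the one that lay with the controls on the first principal component. That component was drawn from the same values, so it gives no independent ground for leaving the library out. Of the siHKlincR1 libraries, library 3 had the highest values of the ring genes and MCM10. Leaving it out therefore lowers their fold changes by construction. The reading of *HKlincR1* in library 3, 27 reads against 221 to 245 in the controls, was that of a depleted library.

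Summed over the 6 ring genes, the libraries held 223, 227 and 252 RPKM with siNT and 193, 170 and 249 RPKM with siHKlincR1. The means were 234 ± 15.9 and 204 ± 40.5 RPKM (SD, n = 3), a ratio of 0.871, and the difference was smaller than the spread within siHKlincR1. The ratio within same-numbered libraries was 0.864, 0.748 and 0.986. The share of each gene in the sum varied less than the sum. MCM7 made up 38.1% to 40.3% with siNT and 35.9% to 39.9% with siHKlincR1, and MCM5, the smallest share, 6.71% to 7.26% and 6.41% to 6.99%. MCM4 moved most for its size, from 16.2% to 17.4% with siNT and from 13.8% to 17.5% with siHKlincR1. The ratio of MCM10 to the sum was 3.75%, 4.13% and 3.87% with siNT and 3.15%, 3.27% and 3.54% with siHKlincR1. In this ratio the groups did not overlap, whereas in the RPKM of MCM10 they did. The share of all genes with such a split was not worked out, so the ratio is a description only.

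The CMG partners join the ring to form the active helicase. All 5 had log2 fold changes below 0, as had 7689 of the 15451 tested genes. The median of the 5 was -0.39, against 0.0011 for all tested genes, and 0 of the 5 were called without or with the block. GINS1 had 7.46, 7.66 and 8.61 RPKM with siNT and 5.17, 4.36 and 6.70 RPKM with siHKlincR1. All of its siHKlincR1 libraries were below all controls, with a log2 fold change of -0.56 (standard error 0.15, limma adjusted p = 0.198, and 0.0554 with the block). GINS4 also had groups apart, at -0.39 (limma adjusted p = 0.243), as 11.9% of all tested genes had in that direction. GINS2 was at -0.44, GINS3 at -0.16 and CDC45 at -0.15. Without siHKlincR1 library 3, GINS1 (-0.72, limma adjusted p = 0.0284) and GINS2 (-0.68, limma adjusted p = 0.0342) were called, against 2.03% of all tested genes, and GINS4 passed by adjusted p (-0.53, limma adjusted p = 0.0280). Each of these was highest in that library among the siHKlincR1 libraries, so leaving it out strengthens the change by construction. Across the alternative fits, the limma adjusted p rose as high as 0.517 for GINS1, 0.656 for GINS2 and 0.562 for GINS4. Their weakest log2 fold changes were -0.42, -0.28 and -0.30.

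The other genes of the pathway were described by lists. Of all 15451 tested genes, 7689 had log2 fold changes below 0, to be set beside the counts of each list. In the fit of all 6 libraries without the block, no gene of these lists was called in either direction, and the values named here had limma adjusted p-values from 0.0973 (POLD3) to 0.964 (TIPIN). With the block 1 gene was called, against 0.809% of all tested genes called lower. It was CDC6, which loads the ring at origins (-0.65, limma adjusted p = 0.0436). Of the 9 origin licensing genes, 5 were below 0 (median -0.15), with ORC1, the largest subunit of the origin recognition complex, at -0.60 and GMNN, the inhibitor of CDT1, at -0.50. All siHKlincR1 libraries were above all controls for 2 of these 9 genes and below them for 1. Over all 15451 tested genes, 1558 had groups apart upward in this way and 1845 downward. Of the 9 origin firing genes, 7 were below 0 (median -0.09), with TICRR at -0.41, RECQL4 at -0.38 and DONSON at -0.36. Groups were apart upward for 1 of these 9 and downward for 2.

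Of the 3 fork protection genes, CLSPN, which relays checkpoint signals at the fork, was at -0.63, TIMELESS at -0.20 and TIPIN at 0.01. Of the 11 genes for CMG unloading, by which the helicase is taken off DNA after replication, 7 were below 0 (median -0.19). NPLOC4 was at -0.31, VCP, the unfoldase that extracts the ring, at -0.25 and UFD1 at -0.21. In this list 2 genes had groups apart upward and 2 downward. Of the 7 tested partners of MCM8 and MCM9, 5 were below 0 (median -0.06), with HROB, which recruits MCM8 and MCM9, at -0.29 and BRCA2 at -0.28. Here 1 gene had groups apart upward and 2 downward.

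Of the 21 strand synthesis genes, 18 were below 0 (median -0.19). FEN1, the flap nuclease, was at -0.64, PCNA, the sliding clamp, at -0.57 and POLD3, a subunit of DNA polymerase delta, at -0.46. Groups were apart upward for 0 of these 21 genes and downward for 2. Of the 13 E2F genes, their partners and the retinoblastoma family, 8 were below 0 (median -0.16), with E2F8 at -0.63, TFDP1 at -0.56 and E2F2 at -0.47. In this list 1 gene had groups apart upward and 4 downward. TFDP1 was alike in the 3 pairs of libraries (-0.52, -0.58 and -0.57). With the block its limma adjusted p was 0.0175, that of NPLOC4 0.0444 and that of RECQL4 0.0498, with fold changes under 1.5. Without siHKlincR1 library 3, 2 of the 9 origin licensing genes, 1 of the 9 origin firing genes, 1 of the 3 fork protection genes, 3 of the 21 strand synthesis genes and 3 of the 13 E2F list genes were called lower, against 2.03% of all tested genes, and none of the CMG unloading genes or of the partners of MCM8 and MCM9. Among those called were CLSPN (-0.92, limma adjusted p = 0.0173), CDC6 (-0.85, limma adjusted p = 0.0173) and FEN1 (-0.90, limma adjusted p = 0.0280). These 3 genes had their weakest ratios in libraries 3 (-0.16, -0.41 and -0.34). Leaving out siHKlincR1 library 3 therefore strengthens their changes by construction. Across the alternative fits, the limma adjusted p rose as high as 0.579 for CLSPN, 0.497 for CDC6 and 0.576 for FEN1. Their weakest log2 fold changes were -0.46, -0.55 and -0.46. By pair of libraries, the list medians were lowest in libraries 2 for all but the E2F list, which was lowest in libraries 1 (-0.27).

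**Figure D4:**
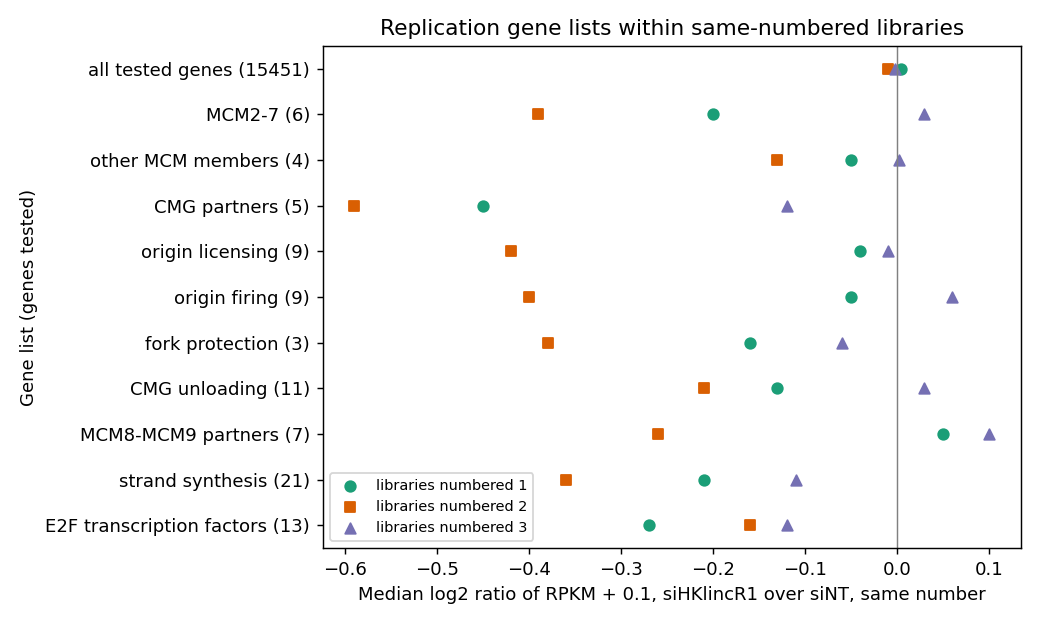
Median log2 ratio of RPKM + 0.1 between siHKlincR1 and siNT libraries of the same number (colour and shape) for each gene list, with the genes tested in brackets. The 6 ring genes lie at -0.20, -0.39 and 0.03 and the CMG partners at -0.45, -0.59 and -0.12 in libraries 1 to 3, and all tested genes within 0.01 of 0.

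Several members share their start or their exons with another gene. Whether the counting used strand is not given in the sources used here, so reads in exon bases shared with a gene on the other strand cannot be told apart. AP4M1, a subunit of an adaptor complex on the plus strand, shares 392 exon bases with MCM7 and had 3.51, 3.47 and 3.76 RPKM with siNT and 2.86, 2.52 and 2.85 RPKM with siHKlincR1. Its groups did not overlap, which held in that direction for 11.9% of all tested genes, and its log2 fold change was -0.37 (limma adjusted p = 0.168, and 0.0730 with the block). ASF1A, a histone chaperone that shares 205 exon bases with MCM9, was at 0.18 (limma adjusted p = 0.328) beside 0.0033 for MCM9. MIR25, inside MCM7, had 4 to 11 reads per library, too few to describe, and a polyA library does not measure the mature microRNA.

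Other members start beside a gene on the opposite strand without shared exon bases. PRKDC, the catalytic subunit of DNA-dependent protein kinase, starts 7 bases from MCM4 and was at 0.13 (limma adjusted p = 0.505) beside -0.33 for MCM4. TRMT6, 94 bases from MCM8, was at 0.10, TPRA1, 143 bases from MCM2, at -0.11, and SEC23IP, 151 bases from MCMBP, at -0.22 (limma adjusted p = 0.345) beside 0.04 for MCMBP. Differences between neighbours were not tested.

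The pattern of the ring over the 6 libraries was expressed as the mean of the standardised log2 values of its 6 genes. It was 0.08, 0.35 and 0.89 in siNT libraries 1 to 3 and -0.73, -1.54 and 0.96 in siHKlincR1 libraries 1 to 3. The ring genes, which make up this profile, correlated with it at Pearson's r from 0.95 (MCM7) to 1.00 (MCM4). MCM10 followed it at 0.94 and MCM8 at 0.75, while MCMBP was at 0.34 and MCM9 at 0.16. Of 4832 other genes averaging 10 RPKM or more, the 5 most alike were PGAM1 (0.999), DBI (0.997), TCP1 (0.996), TUBA1A (0.996) and ENSG00000186076 (0.996). With 6 points that share libraries and depth, these values only describe likeness. How many of the 4832 genes reached the values of MCM10 or MCM8 was not worked out, so those values do not mark a trait of the family. PGAM1, a glycolytic enzyme, had 49.1, 51.6 and 56.7 RPKM with siNT and 41.4, 36.0 and 56.7 RPKM with siHKlincR1, low in siHKlincR1 libraries 1 and 2 as the ring genes were.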

How the data were processed

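PolyA RNA of 6 H460 libraries (3 siNT, 3 siHKlincR1) was prepared with a strand-specific kit and sequenced. Per the submitters' notes and the methods, the authors used featureCounts with Ensembl v74 gene models on hg19 (CASAVA 1.8.2 is also named) and deposited RPKM values. The aligner is not given in the sources used here. Library totals and reads were worked back from the unrounded RPKM, and 100% of the 152380 nonzero values came out whole within 0.001 read.

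Log2(RPKM + 0.1) was tested with limma 3.58.1 in R 4.3.3 (lmFit, eBayes with trend) for the 15451 genes averaging 0.5 RPKM or more, with Benjamini-Hochberg adjustment. Calls required an adjusted p below 0.05 with more than a 1.5-fold change. The fit was also run on simulated data with changes larger than those of the members. That run does not cover changes of the members' size. Replicate numbers come from the titles. Deviations from group means correlated at 0.142, 0.137 and 0.266 between same-numbered libraries and at -0.209 to 0.113 otherwise. The numbers were therefore taken to pair the libraries, and blocked p-values are given. As the pairing was inferred from these same data, the blocked values rest on it as an assumption.

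Members, lists and rules were chosen with earlier results of these data known. Genes named are the members, *HKlincR1*, the CMG partners, at most 3 genes of the largest change with at least 1 RPKM per other list, neighbours above 0.5 RPKM overlapping a member or starting within 1000 bases on the other strand, and the 5 genes most like the ring. A gene that meets this rule is not reported here. Alternatives changed the pseudocount, filter, scaling, variance model, fold threshold and block, used voom on the reads, and left out each library. Coordinates are from GENCODE v44 on GRCh37, except promoter windows, which are on GRCh38.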

Additional observations from a re-analysis of the deposited data

How the results depend on the processing

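No member was called lower under any alternative but 1: leaving out each library in turn gave 0 to 1 members called, the 1 being MCM10 without siHKlincR1 library 3. The log2 fold changes of MCM3 to MCM8, MCM10 and MCMBP kept their sign under all alternatives run, but moved by over 1.5 times for some when a library was left out: without siHKlincR1 library 2, MCM3 was at -0.03, MCM4 at -0.13, MCM5 at -0.16, MCM6 at -0.03, MCM7 at -0.14 and MCM8 at -0.02. That of MCM2 ranged from -0.23 to 0.01 when each library was left out, with the positive value without siHKlincR1 library 2. That of MCM9 ranged from -0.06 to 0.06 when each library was left out and was -0.0003 with voom on reads. A voom fit with the replicate block, added after seeing the data, gave MCM9 -0.0014, and gave limma adjusted p-values of 0.0325 for MCM7 and 0.0303 for MCM10, both with fold changes under 1.5. The ratio of the summed ring genes was 0.871 and lay between 0.775 and 0.943 when each library was left out.

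The counts over all tested genes, 55 lower and 1 higher, moved more. With the replicate block they were 125 lower and 79 higher, with voom on reads 87 and 2, and with voom and the block 264 and 160. Lower calls numbered 34 without the filter on low RPKM and 16 without a variance trend. Higher calls numbered 12 without the filter, 0 with a pseudocount of 0.01 and 2 with no fold threshold. Leaving out each library gave 7 to 314 lower and 0 to 204 higher calls, both highest without siHKlincR1 library 3. The cause was not tested. The block called no member. With 3 libraries per group, member intervals allow differences that were not detectable here, and the 4 to 11 reads of MIR25 allow no statement.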
